A study of Mus musculus with 7 samples.

Results

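RNA polymerases I, II and III and the general transcription factors that load them onto promoters were compared among satellite cells of old mice and satellite cells recovered from mice after death. The members were the genes of the deposited table, which the authors had filtered, whose symbol begins with Polr1, Polr2 or Polr3 and a letter, with Gtf2 or Gtf3, or with Taf and a digit, each read from its brightest probe set among those annotated to a single gene. Probe sets naming several genes, such as those shared by Gtf3c2 and Mpv17, were left out. The rule gave 60 genes of the 13287 named genes, and it used no measured difference. Of these, 8 belong to the polymerase (pol) I machinery, 34 to pol II and 16 to pol III, with Polr1c and Polr1d counted under both I and III, and 4 (Polr2f, Polr2h, Polr2k and Polr2l) encode subunits of all 3 enzymes. All 60 passed the filter on low values, and in each of them every group mean lay above it.

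Pol I transcribes the large ribosomal RNA precursor, pol II messenger RNAs, and pol III transfer RNAs and 5S ribosomal RNA. Pol I is brought to its promoter by SL1, a complex of the TATA-binding protein (TBP) and TAF proteins, pol II by TFIIA to TFIIH, of which TFIID holds TBP and another set of TAFs, and pol III by TFIIIB with TFIIIC and, at 5S genes, TFIIIA. Quiescent satellite cells, the stem cells that lie beside the muscle fibre, are small cells with little RNA, and output of all 3 enzymes increases when they enter the cell cycle.

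The cells carried the Tg:Pax7-nGFP transgene, in which Pax7 regulatory sequence drives a nuclear GFP, and were sorted on GFP by FACS. There were 2 arrays of cells from living mice of 24 to 26 months by the array labels (old), 2 arrays of cells taken at day 2 post mortem (D2PM) and 3 arrays taken at day 4 (D4PM). The series title speaks of young adult mice and its design text counts the same age in weeks, so the age of the living mice rests on the labels. The labels give no age for the post-mortem mice, which the study describes as younger adults, so age and death cannot be told apart in any comparison with the old arrays. No source states that replicate arrays stem from different animals, and p-values then measure the spread between these arrays, which may be technical. Values are log2 signals made by RMA (robust multi-array average), so a difference of 1 is a doubling, and they have no absolute zero. Array medians lay between 6.11 and 6.19. In sorted cells measured in bulk, fewer cells of a type and less RNA per cell cannot be told apart.

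Satellite cell markers were high on every array, with Pax7 between 9.87 and 10.52 and Myf5 between 10.99 and 11.44, and the mean of 14 such markers lay between 9.85 and 10.06. Single markers ranged lower, Itga7 between 7.63 and 8.20, and 5 of the 14 were higher post mortem (Heyl by 0.81, Cd34, Spry1, Calcr and Cxcr4) and 3 lower (log2 differences of -1.23 for Myod1, -0.77 for Msc and -0.73 for Vcam1). Markers of other cells were higher post mortem than in old cells: 11 of 16 endothelial genes tested, 12 of 16 myofibre genes, 5 of 6 tenocyte genes and 3 of 5 Schwann cell genes passed the test upwards and 0 downwards. The mean of the endothelial list was 6.40 and 5.74 on the old arrays and 6.74 to 7.34 on the post-mortem arrays, and that of the myofibre list was 7.48 and 7.17 against 8.05 to 8.38. The tenocyte mean was 6.08 and 5.63 against 6.18 to 7.08, and the Schwann cell mean 6.13 and 5.79 against 6.44 to 6.58. Among 8 macrophage genes tested 1 was lower, of 10 genes of fibroadipogenic progenitors and 9 of pericytes none passed either way at an adjusted p under 0.05, and the 7 lymphocyte genes measured were all below the filter. These lists differ along the same grouping as every comparison with old cells below, and their part in the results was not tested.

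To ask whether the transcription machinery differed after death, the mean of the D2PM and D4PM group means was set against old with limma, and a gene was called where its p, adjusted by Benjamini-Hochberg over the 9944 genes tested, was under 0.05. Of the 60 members 22 were called, against 29.0% of all genes tested: 11 were higher (18.3%) and 11 lower (18.3%), against 14.4% and 14.7% of all genes. Differences below 0 were found in 33 members, against 49.7% of all genes. The median difference of the members was -0.03, beside 0.00 over all genes. An array left out of old or D2PM leaves 1 array in that group, which limma then takes to vary like the other groups, and all counts without an array are to be read so. Of the 22 called members, 7 were still called without old replicate 2 (Polr1b, Polr2g, Polr2i, Polr3c, Polr3e, Polr3k and Taf4b), when 8.63% of all genes were. Without old replicate 1, 14 of the 22 were still called, and Gtf2e2, Gtf2h5, Gtf3a, Polr2d, Polr3c, Polr3k, Taf1 and Taf12 were not. Without D2PM replicate 1 the calls of Gtf3a, Polr2d, Polr3c, Taf12 and Taf1a were lost, and without D2PM replicate 2 those of Polr3k, Taf12 and Taf1a. Leaving out any D4PM array lost none of the 22. The share of all genes called was then 28.3% without replicate 1, 27.6% without replicate 2 and 27.3% without replicate 3. That share fell further whenever an array of old or D2PM was left out, so calls were lost over all genes too.

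**Figure D1:**
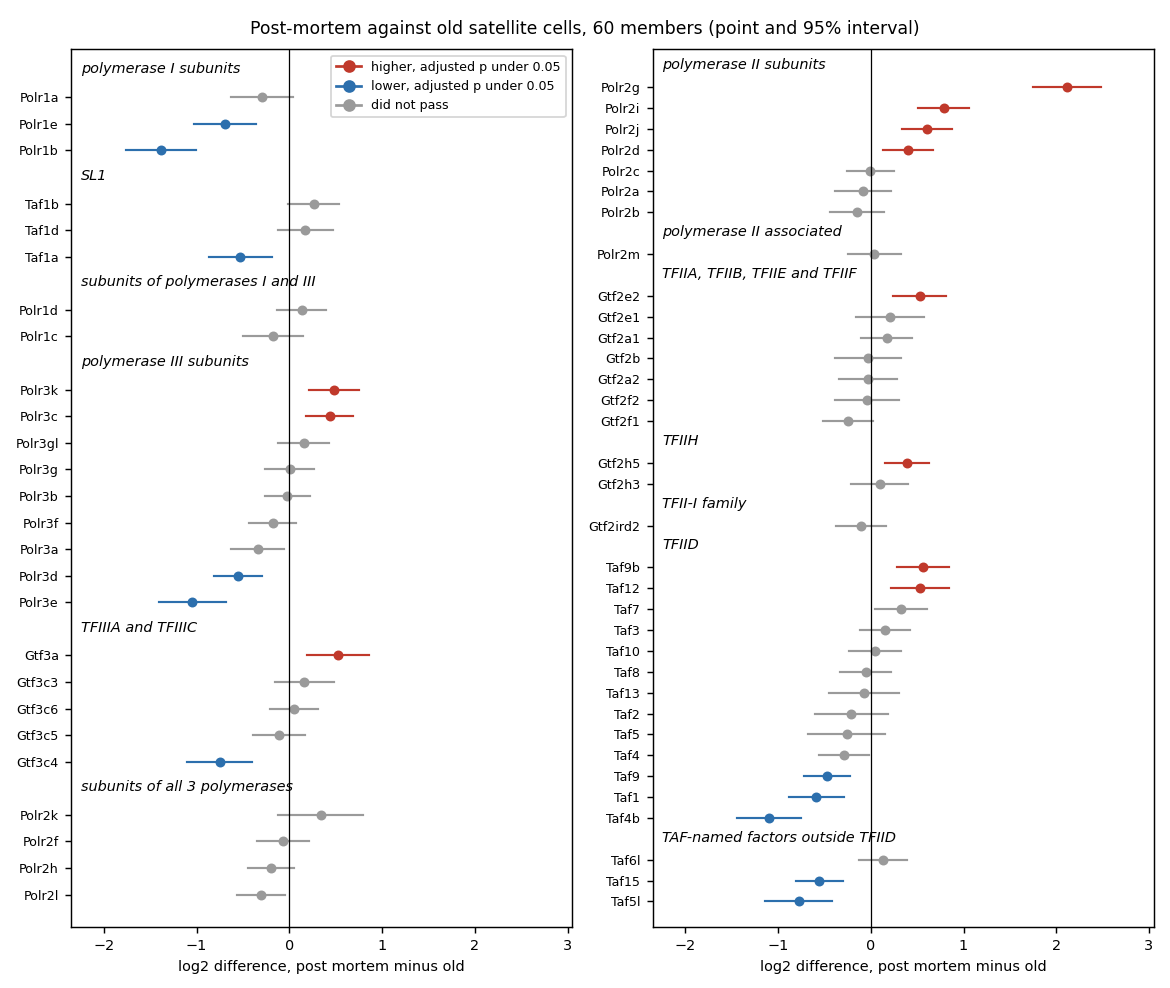
Log2 difference between post-mortem and old satellite cells for each of the 60 members (point, with the 95% confidence interval of limma as a bar), arranged by role. Red points passed upwards, blue points downwards and grey points did not pass; Polr2g lies alone at 2.12, and the lowest are Polr1b, Taf4b and Polr3e.

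The largest difference among the members was in Polr2g, which encodes RPB7, one of the pair of subunits that form the stalk of pol II. Its log2 values were 7.26 and 7.37 in old cells, 8.82 and 9.09 at D2PM and 9.96, 10.21 and 9.56 at D4PM. The 3 groups did not overlap, with D4PM above D2PM and D2PM above old. Polr2g was 2.12 higher post mortem on the log2 scale (SE 0.17, 4.33-fold, limma adjusted p = 1.35e-05), by 1.64 at D2PM (adjusted p = 0.000505) and by 2.59 at D4PM (adjusted p = 5.22e-06). Its partner in the stalk, Polr2d (RPB4), read 8.10 and 8.12 in old cells, 8.76 and 8.44 at D2PM and 8.45, 8.41 and 8.40 at D4PM. All 5 post-mortem arrays of Polr2d stood above both old arrays, and the difference was 0.40 (SE 0.12, adjusted p = 0.0276).

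In the pol II machinery 8 of 34 members were higher (23.5%) and 5 lower (14.7%), against 14.4% and 14.7% of all genes. The median difference was -0.02. Of the 7 subunits found in pol II alone, 4 were higher post mortem (57.1%) and 0 lower, with a median difference of 0.40. Polr2i encodes RPB9, a small subunit with a part in start site choice and proofreading. It read 7.93 and 7.71 in old cells, 8.88 and 8.70 at D2PM and 8.30, 8.46 and 8.52 at D4PM, so that both D2PM arrays lay above the D4PM arrays and these above the old arrays. The post-mortem difference was 0.79 (SE 0.12, adjusted p = 0.000997). Polr2j encodes RPB11, which pairs with RPB3 in the assembly of the enzyme. It read 7.79 and 7.80 in old cells, 8.44 and 8.52 at D2PM and 8.16, 8.50 and 8.35 at D4PM, and was 0.61 higher (SE 0.12, adjusted p = 0.00389) with no overlap between old and post-mortem arrays.

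The largest and second largest subunits, which form the catalytic centre, did not pass, and nor did Polr2c. Polr2a, the largest subunit, read 8.83 and 8.91 in old cells, 8.53 and 8.72 at D2PM and 9.16, 8.96 and 8.73 at D4PM. The old values lay inside the post-mortem range, and the difference was -0.08 with a 95% interval of -0.38 to 0.21. Polr2b, the second largest subunit, differed by -0.15 (interval -0.44 to 0.15) and Polr2c (RPB3) by -0.01 (interval -0.26 to 0.25). Polr2m, a protein that binds the assembled enzyme, differed by 0.04 (adjusted p = 0.851). The 4 subunits common to all 3 enzymes did not pass either: Polr2k differed by 0.34, Polr2f by -0.07, Polr2h by -0.20 and Polr2l by -0.31 (adjusted p = 0.0719).

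In the pol I machinery 0 of 8 members were higher and 3 lower (37.5%), against 14.4% and 14.7% of all genes. The median difference was -0.24. Polr1b encodes the second largest subunit of pol I and had the lowest difference of all 60 members. It read 7.38 and 8.04 in old cells, 6.56 and 6.56 at D2PM and 6.18, 6.23 and 5.85 at D4PM. The 3 groups did not overlap, and the old arrays differed from each other by more than the arrays of either post-mortem group did. Polr1b was 1.38 lower, at 0.383 of its old level (log2 difference -1.38, SE 0.17, adjusted p = 0.000271).

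Polr1e, a subunit (PAF53) that helps pol I to engage its promoter, read 6.37 and 6.73 in old cells, 6.15 and 5.95 at D2PM and 5.50, 5.93 and 5.57 at D4PM. Every post-mortem array was below both old arrays, and D4PM below D2PM. The difference was -0.70 (SE 0.15, adjusted p = 0.00605). Polr1a, the largest subunit of pol I, read 6.91 and 7.03 in old cells, 6.53 and 6.95 at D2PM and 6.66, 6.79 and 6.38 at D4PM, and its difference of -0.30 did not pass (interval -0.63 to 0.04, adjusted p = 0.167).

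The SL1 members, which bring pol I to its promoter, differed among themselves. Taf1a, a TAF of SL1, read 7.70 and 8.27 in old cells, 7.46 and 7.58 at D2PM and 7.45, 7.50 and 7.24 at D4PM. All post-mortem arrays lay below both old arrays, the nearest by a small margin under old replicate 1, and the difference was -0.53 (SE 0.16, adjusted p = 0.0256). It was -0.24 without old replicate 2 and -0.81 without old replicate 1. Taf1b differed by 0.26 (adjusted p = 0.141) and Taf1d by 0.17 (adjusted p = 0.37). Taf1d had 9 probe sets annotated to it alone, and the brightest, at a mean of 11.44 in old cells, was the one used. Of the others, 4 carried identical values on every array and differed by -0.79, and the remaining 4 differed by -0.67, -0.48, -0.06 and -0.03. With the mean of its probe sets Taf1d was called lower, and the pol I median became -0.38, so the direction for Taf1d depends on the probe set.

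Polr1c and Polr1d, the pair of subunits common to pol I and pol III, did not pass. Polr1c differed by -0.18 (adjusted p = 0.393) and Polr1d by 0.13 (adjusted p = 0.432). Without this pair the pol I median was -0.41 over 6 genes.

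In the pol III machinery 3 of 16 members were higher and 3 lower (18.75% each), near the 14.4% and 14.7% of all genes. The median difference was -0.01. The lower subunits are partners: Polr3d and Polr3e encode the TFIIF-like module that the enzyme uses in initiation and termination. Polr3e read 7.61 and 8.19 in old cells, 7.03 and 6.83 at D2PM and 6.79, 6.96 and 6.61 at D4PM. Old and post-mortem arrays did not overlap, and the difference was -1.04 (SE 0.16, adjusted p = 0.000973). A second probe set of Polr3e gave a difference of -1.0. Polr3d read 8.15 and 8.13 in old cells, 7.68 and 7.80 at D2PM and 7.43, 7.55 and 7.28 at D4PM, in that order with no overlap between groups, and was 0.56 lower (log2 difference -0.56, SE 0.12, adjusted p = 0.00526).

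The higher pol III subunits were Polr3k and Polr3c. Polr3k encodes the subunit that lets pol III cut its transcript. It read 5.75 and 6.0 in old cells, 6.38 and 6.62 at D2PM and 6.18, 6.28 and 6.18 at D4PM, with D2PM highest, and the difference was 0.48 (SE 0.12, adjusted p = 0.014). Polr3c, part of the trimer that opens the promoter, read 5.96 and 6.22 in old cells, 6.68 and 6.68 at D2PM and 6.40, 6.40 and 6.33 at D4PM. Its groups had the same order without overlap, and the difference was 0.43 (SE 0.12, adjusted p = 0.0168).

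The trimer's alternative subunits are the paralogues Polr3g, known from stem cells, and Polr3gl. Polr3g read 5.69 and 5.92 in old cells, 5.93 and 5.81 at D2PM and 5.81, 5.81 and 5.62 at D4PM, with overlap throughout. It differed by 0.00 (interval -0.27 to 0.27), a value whose sign changed with the normalisation, and Polr3gl by 0.15 (interval -0.12 to 0.43). Polr3gl carried 1 identical value, 7.20, on all 5 post-mortem arrays beside 7.23 and 6.85 in old cells. Such repeats, equal values on 2 or more arrays, occurred in 16 of the 60 members and in 38.8% of all genes tested. Polr3a, the largest subunit, read 6.42 and 6.74 in old cells, 6.13 and 6.32 at D2PM and 6.36, 6.20 and 6.21 at D4PM, all post-mortem arrays below both old arrays. Its difference of -0.34 did not pass (adjusted p = 0.0683), but it did after a second quantile normalisation, after median centring and without old replicate 1. Polr3f (-0.18) and Polr3b (-0.02) did not pass.

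Of the 5 members of TFIIIA and TFIIIC, 1 was higher and 1 lower (20% each, against 14.4% and 14.7% of all genes). Gtf3a encodes TFIIIA, the factor of the 5S genes. It read 7.44 and 7.55 in old cells, 8.25 and 7.97 at D2PM and 7.70, 8.22 and 7.88 at D4PM, all post-mortem arrays above old, and the difference was 0.53 (SE 0.15, adjusted p = 0.0223). Gtf3c4, a subunit of TFIIIC, read 7.26 and 7.69 in old cells, 6.86 and 6.86 at D2PM and 6.73, 6.29 and 6.76 at D4PM. Its groups were ordered from old down to D4PM without overlap, and the difference was -0.75 (SE 0.16, adjusted p = 0.00521). Gtf3c3, Gtf3c5 and Gtf3c6 differed by 0.16, -0.11 and 0.05, and none of them passed.

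**Figure D2:**
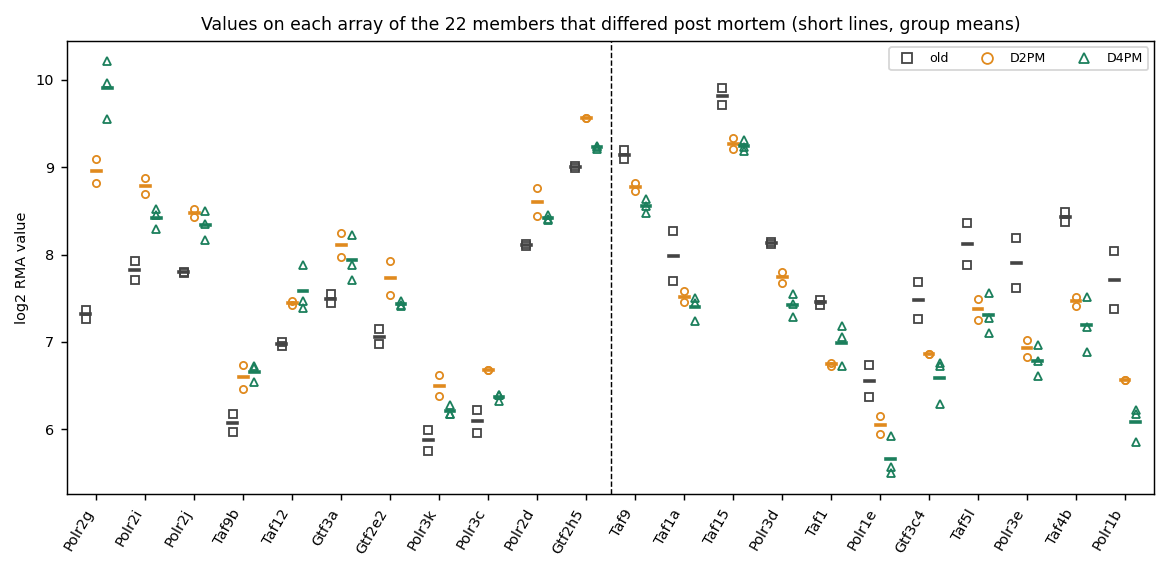
Log2 RMA value on each of the 7 arrays for the 22 members called between post-mortem and old cells, higher ones left of the dashed line and lower ones right of it (squares old, circles D2PM, triangles D4PM, short lines group means). In all 22 the post-mortem arrays lie on 1 side of both old arrays; levels of different genes come from different probes and cannot be compared.

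Of 13 TFIID members 2 were higher (15.4%), 3 lower (23.1%) and 8 did not pass, with a median difference of -0.07. Of all genes 14.4% were higher and 14.7% lower. Taf4b, a paralogue of Taf4 best known from the germ line, read 8.49 and 8.37 in old cells, 7.52 and 7.41 at D2PM and 7.52, 7.17 and 6.88 at D4PM. The post-mortem arrays lay clear of the old arrays and overlapped each other, and the difference was -1.10 (SE 0.16, adjusted p = 0.000593). Taf4 itself read 7.36 and 7.35 in old cells, 7.03 and 7.11 at D2PM and 7.15, 6.87 and 7.15 at D4PM, and its difference of -0.29 did not pass (interval -0.56 to -0.02, adjusted p = 0.0945).

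Taf1 encodes the largest subunit of TFIID. It read 7.49 and 7.42 in old cells, 6.76 and 6.73 at D2PM and 7.19, 6.73 and 7.06 at D4PM, and was 0.59 lower (log2 difference -0.59, SE 0.14, adjusted p = 0.00799). All 5 post-mortem arrays were below old, with 2 of the D4PM arrays nearer to old than either D2PM array was.

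The paralogues Taf9 and Taf9b, histone-fold proteins that can stand in for each other in TFIID, passed in opposite directions. Taf9 read 9.09 and 9.19 in old cells, 8.82 and 8.73 at D2PM and 8.47, 8.64 and 8.55 at D4PM, a difference of -0.48 (SE 0.11, adjusted p = 0.00888). Taf9b read 6.17 and 5.97 in old cells, 6.74 and 6.47 at D2PM and 6.72, 6.71 and 6.55 at D4PM, a difference of 0.56 (SE 0.13, adjusted p = 0.00709). For both genes old and post-mortem arrays did not overlap. Taf9 overlaps Ak6 in RefSeq, and a probe set annotated to both, which the rule left out, differed by -0.46.

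Taf12, another histone-fold subunit, read 6.96 and 7.0 in old cells, 7.42 and 7.46 at D2PM and 7.47, 7.88 and 7.39 at D4PM, all post-mortem arrays above old. The difference was 0.53 (SE 0.14, adjusted p = 0.0162). Taf7 read 7.77 and 7.38 in old cells, 7.88 and 7.85 at D2PM and 7.89, 7.94 and 7.97 at D4PM, above old on every post-mortem array, and its difference of 0.32 did not pass (adjusted p = 0.0806). The TFIID members not yet described lay between -0.26 (Taf5) and 0.15 (Taf3), and none of them passed. On D4PM replicate 3, Taf2 read 6.30, Taf13 7.77 and Gtf2b, which encodes TFIIB, 7.77, each the lowest value of that gene on any array.

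The rule also drew TAF-named proteins that work outside TFIID. Taf5l, a paralogue of Taf5 in the SAGA coactivator, read 7.88 and 8.36 in old cells, 7.49 and 7.26 at D2PM and 7.10, 7.27 and 7.56 at D4PM, with no overlap, and was 0.78 lower (log2 difference -0.78, SE 0.16, adjusted p = 0.00504). Taf15, an RNA-binding protein of the FET family, read 9.71 and 9.91 in old cells, 9.21 and 9.34 at D2PM and 9.32, 9.18 and 9.23 at D4PM. The post-mortem arrays sat close together below old, and the difference was -0.55 (SE 0.12, adjusted p = 0.00492). Taf6l, also of SAGA, read 6.32 and 6.23 in old cells, 6.38 and 6.38 at D2PM and 6.45, 6.29 and 6.55 at D4PM, and its difference of 0.13 did not pass. Taf5 read 6.95 and 6.75 in old cells, 6.82 and 6.56 at D2PM and 6.87, 6.05 and 6.53 at D4PM, overlapping old, and did not pass either (-0.26, interval -0.68 to 0.15).

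Of the remaining pol II factors, Gtf2e2 and Gtf2h5 were higher. Gtf2e2 encodes the smaller subunit of TFIIE. It read 6.97 and 7.14 in old cells, 7.93 and 7.54 at D2PM and 7.41, 7.46 and 7.42 at D4PM, D2PM highest and old lowest without overlap, and the difference was 0.53 (SE 0.13, adjusted p = 0.0111). Gtf2h5 encodes the smallest subunit of TFIIH, which also serves DNA repair. It read 9.01 and 8.99 in old cells, 9.56 and 9.56 at D2PM and 9.23, 9.25 and 9.21 at D4PM, in the same order, and the difference was 0.39 (SE 0.11, adjusted p = 0.0176). Gtf2a1, of TFIIA, read 8.87 and 8.62 in old cells, 8.79 and 8.93 at D2PM and 9.06, 9.02 and 8.85 at D4PM, with overlap, and its difference of 0.17 did not pass. Gtf2e1, Gtf2a2, Gtf2b, Gtf2f1 and Gtf2f2 lay between -0.25 (Gtf2f1, adjusted p = 0.155) and 0.21 (Gtf2e1, adjusted p = 0.367), Gtf2h3 at 0.10 and Gtf2ird2, of the TFII-I family, at -0.11, and none of them passed.

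Seen by array, the mean of the 3 members that are subunits of pol I alone (Polr1a, Polr1b and Polr1e) was 6.89 and 7.27 in old cells. It was 6.41 and 6.49 at D2PM and 6.11, 6.31 and 5.93 at D4PM. The pol I subunit genes Cd3eap, Twistnb and Znrd1 fall outside the rule and this mean. They differed post mortem from old by -0.97, -0.42 and 0.32. The mean of the 7 subunits found in pol II alone was 7.99 and 8.02 in old cells, 8.51 and 8.48 at D2PM and 8.61, 8.63 and 8.47 at D4PM. Both sets separated the old from the post-mortem arrays, in opposite directions. More than any other gene Polr2g carried the pol II value: without it, a set formed after its values were seen, the means of the other 6 were 8.11 and 8.13 in old cells, 8.45 and 8.37 at D2PM and 8.39, 8.36 and 8.29 at D4PM. The mean of all 34 pol II members was 7.66 and 7.70 in old cells and between 7.64 and 7.79 post mortem, and so did not separate them. The mean of the 16 pol III members was 7.20 and 7.35 in old cells, 7.32 and 7.26 at D2PM, between the old arrays, and 7.13, 7.12 and 7.07 at D4PM, below them. The differences between the machineries are descriptions of these genes and were not tested.

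**Figure D3:**
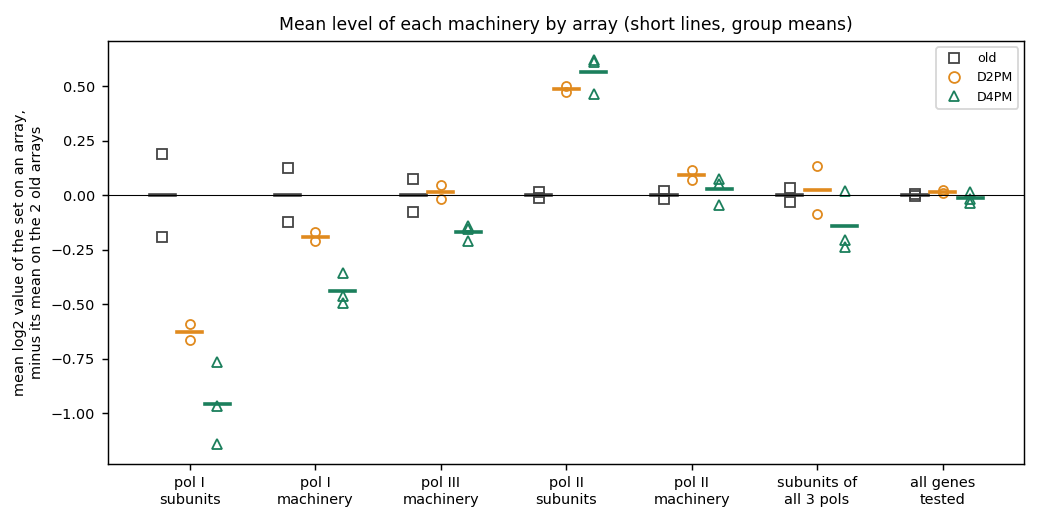
Mean log2 value of each set of members on each array, minus the mean of that set on the 2 old arrays (squares old, circles D2PM, triangles D4PM, short lines group means). The 3 pol I subunits among the members lie below 0 and the 7 pol II subunits above 0 on every post-mortem array. The mean of all genes tested stays within 0.04 of 0, where normalisation between arrays holds it, and is no background for small sets.

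Each day was also set against old by itself. At D2PM 10 members were higher and 7 lower, beside 10.3% and 9.11% of all genes, with a member median of 0.05. These counts rest on few arrays: in all 17 members were called, beside 19.4% of all genes. Without D2PM replicate 1 the members called were 2 (3.25% of all genes), without D2PM replicate 2 they were 4 (6.17%), without old replicate 2 they were 3 (3.48%) and without old replicate 1 they were 10 (12.9%). At D4PM 5 members were higher and 12 lower, beside 12.4% and 15.5% of all genes, with a member median of -0.07. Again 17 were called, beside 27.9% of all genes. Without old replicate 2 the members called were 5 (9.16% of all genes), and without any other array they were between 14 and 18 (21.6% to 25.3%).

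The members that passed at both days were Polr2g, Polr2i, Polr2j and Taf9b upwards and Polr1b, Polr3e, Gtf3c4, Taf1, Taf4b, Taf5l and Taf15 downwards. Polr2d, Gtf2e2, Gtf2h5, Gtf3a, Polr3c and Polr3k passed at D2PM, with adjusted p between 0.0119 and 0.0339, and had differences of 0.23 to 0.44 at D4PM, where they did not. Polr1e, Polr3d, Taf9, Taf1a and Polr2l (lower) and Taf12 (higher) passed at D4PM, with adjusted p between 0.00222 and 0.0477, and not at D2PM. The days share the old arrays, and passing at 1 day and not the other does not show that the days differ.

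That difference was tested directly. Between D4PM and D2PM 0 of the 60 members passed, against 0.191% of all genes tested by limma (0.161% higher and 0.0302% lower), and 10 had an unadjusted p under 0.05, against 7.76% of all genes. Student's test called 0 of all 9944 genes here, so its 0 members say nothing about the members in particular. By that test 5 members had an unadjusted p under 0.05, a count for which no share of all genes was computed. Of the 60 members 44 had a lower mean at D4PM, against 56.6% of all genes, and the median difference was -0.16, beside -0.03 over all genes. In 20 of the 60 members all D4PM arrays lay below both D2PM arrays, against 15.6% of all genes. In 4 of the 60 they lay above, against 9.69% of all genes.

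The nearest to the threshold was Polr2g, 0.95 higher at D4PM (interval 0.56 to 1.35, adjusted p = 0.0911), which passed without D4PM replicate 3. The lowest difference was that of Polr1b, at -0.48 (interval -0.89 to -0.07, adjusted p = 0.582). Polr1e (-0.39), Polr1c (-0.39), Polr2i (-0.37), Gtf2h5 (-0.33), Gtf3c6 (-0.34), Polr3d (-0.32) and Polr3c (-0.31) were lower and Polr2a (0.33) higher by their means, each with an unadjusted p under 0.05 and an adjusted p over it. All 8 pol I members except Taf1b, and 13 of 16 pol III members, had a lower mean at D4PM than at D2PM, and 23 of 34 pol II members did.

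In 13 members all 5 post-mortem arrays lay above both old arrays and in 18 they lay below, against 22.8% and 23.2% of all genes. The 11 higher and 11 lower calls are among these. The others above were Taf1b and Taf7, and the others below were Gtf2f1, Polr2h, Polr2l, Polr3a, Polr3f, Taf2 and Taf4.

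Promoter windows were available for 51 of the 60 members in a RefSeq table of assembly GRCm38.p6, 60 windows in all, each with 250 bases before and 50 after a start site. Short motifs were searched on both strands as exact letters, and none of these strings contains another: the GC box GGGCGG, the ETS core CCGGAAG, the E-box CACGTG, the YY1 string AAGATGGCG, the CRE TGACGTCA, the NRF1 string GCATGCGC and the TATA box TATAAA. The GC box occurred in 63.3% of the member windows and in 35.7% of all 32851 windows, the ETS core in 36.7% and 8.86%, the E-box in 26.7% and 7.15%, YY1 in 6 of 60 member windows and 1.40% of all, and NRF1 in 6 of 60 and 2.71%. The TATA box occurred in 11.7% and 13.6% and the CRE in 1.67% and 1.79%.

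Among called members, 7 of 10 windows of the higher genes and 11 of 12 of the lower genes held a GC box, an E-box stood in 5 of 10 and 2 of 12, an ETS core in 3 of 10 and 5 of 12, and a TATA box in 0 of either. These windows belong to 8 higher and 9 lower genes, and those of Gtf2h5, of Taf1a and of Taf9 overlap. By gene, a GC box stood in 6 of 8 and 9 of 9, an E-box in 4 of 8 and 2 of 9, and an ETS core in 3 of 8 and 4 of 9. In windows of uncalled members the GC box occurred in 52.6%, the E-box in 23.7%, the ETS core in 36.8% and the TATA box in 18.4%. The 150 bases before the start are shown for a pair of higher pol II subunits and for the lower subunits of pol I and pol III that were called in every alternative tried, so that both directions can be compared. Letters in capitals mark a GC box (GGGCGG), an ETS core (CCGGAAG) or an NRF1 string (GCATGCGC), all read here on the strand of the gene. A match describes the letters and shows no binding.
Polr2i (higher, chr7:30231924-30232073, + strand): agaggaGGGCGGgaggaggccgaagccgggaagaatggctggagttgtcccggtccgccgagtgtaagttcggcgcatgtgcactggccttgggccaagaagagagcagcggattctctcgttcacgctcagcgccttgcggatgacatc
Polr2j (higher, chr5:136116541-136116690, + strand): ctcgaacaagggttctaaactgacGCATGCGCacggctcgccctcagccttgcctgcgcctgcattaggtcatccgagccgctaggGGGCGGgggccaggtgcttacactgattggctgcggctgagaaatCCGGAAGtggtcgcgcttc
Polr1b (lower, chr2:129100846-129100995, + strand): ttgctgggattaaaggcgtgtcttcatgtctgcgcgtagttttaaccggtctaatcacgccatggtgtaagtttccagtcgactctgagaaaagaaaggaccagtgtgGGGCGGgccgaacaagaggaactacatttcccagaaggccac
Polr3e (lower, chr7:120917628-120917777, + strand): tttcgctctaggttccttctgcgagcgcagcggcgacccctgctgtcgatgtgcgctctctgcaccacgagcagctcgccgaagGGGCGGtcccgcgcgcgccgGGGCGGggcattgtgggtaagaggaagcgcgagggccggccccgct

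A GC box thus stands before both the higher and the lower genes shown: its first base lies 144 bases before the start in Polr2i, 64 in Polr2j, 42 in Polr1b, and 66 and 46 in Polr3e. In Polr2j an ETS core begins 19 bases and an NRF1 string 126 bases before the start.

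Members also differed in the length of genome they span. Polr2i spans 1.31 kb and Polr2g 5.43 kb from first to last exon, introns included, and Polr1b spans 27.1 kb, Polr3e 29.7 kb and Taf4b 177 kb. The median span was 6.96 kb for the 11 higher members, 25.1 kb for the 11 lower and 17.7 kb for the 38 that did not pass. Over all genes tested these medians were 12.8, 29.8 and 21.3 kb. Spearman's rho between span and the post-mortem difference was -0.27 over the 60 members and -0.21 over the 9921 genes with a span. These are correlations across genes measured on the same 7 arrays, and genes are not independent replicates. Exceptions stood on both sides: Gtf2e2 spans 45.3 kb and was higher, and Taf9 spans 4.72 kb and was lower.

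**Figure D4:**
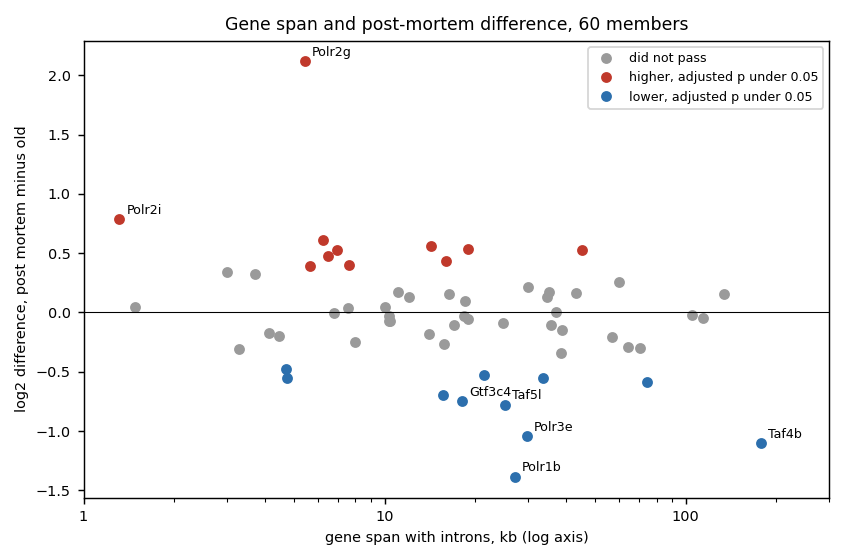
Genomic span of each of the 60 members in kb (log axis, introns included, RefSeq on GRCm38.p6) against its log2 difference between post-mortem and old cells, coloured by call. The higher members lie mostly at the left and the lower members mostly at the right, with the uncalled members along the whole axis.

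Factors of the same enzymes whose symbols fall outside the rule were read from separate lists. Of 6 other pol I factors 1 passed, Cd3eap, which encodes the partner of Polr1e in the enzyme: its group means were 8.02 in old cells, 7.12 at D2PM and 6.98 at D4PM, a difference of -0.97 (SE 0.14, adjusted p = 0.000538). The pol I subunit genes Twistnb and Znrd1 differed by -0.42 and 0.32, the initiation factors Rrn3 and Ubtf by -0.38 and -0.18, and the list median was -0.28. At D4PM against old 3 of the 6 were lower and 0 higher, where 15.5% of all genes were lower and 12.4% higher. They were Cd3eap (-1.04), Twistnb (-0.56, adjusted p = 0.0249) and Rrn3 (-0.53, adjusted p = 0.0399). Of 9 other pol III factors 2 were lower, Bdp1 of TFIIIB by a difference of -0.87 (adjusted p = 0.000711) and Snapc4 of the snRNA promoter complex by -0.80 (adjusted p = 0.00249), and the list median was -0.12. Brf1, also of TFIIIB, and Maf1, the repressor of pol III, differed by -0.11 and 0.16 and did not pass.

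Of 10 other factors of pol II initiation 2 were higher and 1 lower, with a median of 0.01. Mnat1, which helps to assemble the kinase of TFIIH, differed by 0.69 (adjusted p = 0.00193), Tbpl1, a relative of TBP, by 0.46 (adjusted p = 0.0117), and Btaf1, which removes TBP from DNA, by -0.72 (adjusted p = 0.00563). Tbp itself differed by 0.06 (adjusted p = 0.728). Among 28 Mediator genes, which link activators to pol II, 3 were higher and 3 lower, with a median of -0.09. Med30 (1.18), Med28 (0.68) and Med31 (0.60) were higher, and Med13 (-0.79), Med8 (-0.47) and Med15 (-0.41) lower.

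Of 23 genes that act on pol II in pausing and elongation 1 was higher and 7 were lower, with a median of -0.15. Ell2 and Aff4, of the super elongation complex, differed by -1.42 (SE 0.21, adjusted p = 0.000793) and -0.81 (SE 0.13, adjusted p = 0.000999), and Supt6, a histone chaperone that travels with pol II, by -0.75 (adjusted p = 0.00414). Tcea3, of the TFIIS family, was 0.47 higher (adjusted p = 0.0219), and Cdk9, the kinase that releases paused pol II, differed by -0.15 (adjusted p = 0.337). Except where D4PM is named, the lists were read in the comparison of post-mortem with old cells, where 14.4% of all genes were higher and 14.7% lower. At D4PM against old, 0 of the 9 pol III factors were higher and 2 lower. Of the 10 factors of pol II initiation 2 were higher and 1 lower, of the 28 Mediator genes 3 and 4, and of the 23 pausing and elongation genes 1 and 5.

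Some values rest on probes that other transcripts could share. Polr2i overlaps Tbcb and Ovol3 in RefSeq, Gtf3a overlaps Mtif3 and Polr1e overlaps Fbxo10. Taf4b overlaps Gm21055, 4930543D07Rik and Gm9474, Gtf2e2 overlaps 1700104B16Rik and Smim18, Polr3c overlaps Gm22581 and Taf5l overlaps Gm17827. Among the uncalled members, Taf1d overlaps Cep295 and several other loci. Polr2g, Polr2j, Polr1b and Polr3e overlap no gene. RefSeq lists pseudogenes for Taf9, Polr2d and Polr2k, so probes of these genes may read copies. For Polr2k a brighter probe set annotated also to a second gene differed by 0.63, beside 0.34 for its own. A second probe set differed in sign from the one used in Taf13 (0.24 against -0.07) and Polr2c (0.05 against -0.01), and kept its sign in Polr1d, Polr2h, Polr2l and Polr3e.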

How the data were processed

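The authors deposited log2 values of 7 GeneChip Mouse Gene 1.0 ST arrays, made with RMA (background correction, normalisation between arrays, summary per probe set), after removing probes taken as not expressed or invariant; the thresholds are not given in the sources used here. RNA came from cells sorted into lysis buffer and amplified with Ovation Pico V2. RMA values carry no detection call, and array number limits the precision. The table holds 18675 probe sets, of which 14480 name 1 gene, 774 several and 3421 none. The lowest SD over the 7 arrays was 0.0914. Because invariant probe sets are absent, the share of genes called is a share of genes that vary.

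Each gene was read from its brightest single-gene probe set. Genes with a mean over the 7 arrays of at least 5.12, the 25th percentile of single-gene probe sets, were tested (9944 of 13287). All 60 members matched RefSeq by Entrez identifier with 0 symbol changes. A further 15 protein-coding RefSeq symbols that fit the rule are not analysed here.

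limma 3.58.1 in R 4.3.3 fitted 3 group means over all 7 arrays (4 residual degrees of freedom, empirical Bayes without trend, Benjamini-Hochberg over all genes tested). The fit was tested on simulated data. Values per array were set to be given for up to 3 called members of each role, the largest subunits and paralogue pairs, and names for up to 3 called genes of each pathway list by moderated statistic. Per-array values of the other called members, and the names of other genes of the lists, were added after their values were seen. The members, the lists of pathways and cell type markers and the tests were chosen with earlier results of these data known. As alternatives, arrays were quantile normalised again or centred on their medians, the filter was dropped or set at the 50th percentile, probe sets of a gene were averaged, the prior was trended and robust, arrays were weighted or left out in turn, the replicate number was a block, a log2 difference of at least 1 was required, Student's test was used, and the post-mortem arrays were fitted alone. Deviations from the group means of arrays with the same number correlated between -0.08 and 0.05.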

Additional observations from a re-analysis of the deposited data

How the results depend on the processing

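Polr1b, Polr2g, Polr3e and Taf4b were called between post-mortem and old cells under all 17 alternatives and kept their direction, and Polr2i in 16 of them, all but the demand for a log2 difference of at least 1. The least stable calls were Polr2d and Taf12, each kept in 11. At D2PM against old, 10 higher members became 1 with a log2 difference of at least 1, 0 by Student's test and 2 to 11 with 1 array left out, and 7 lower became 1, 0 and 0 to 8. At D4PM, 5 higher became 1, 0 and 1 to 6, and 9 after a second quantile normalisation, and 12 lower became 3, 0 and 4 to 12. For post-mortem cells together, 11 higher became 1, 4 and 4 to 11, and 11 lower became 3, 5 and 3 to 12. Student's test called 0.151% of all genes at D2PM, 0.141% at D4PM and 17.3% post mortem. By limma these shares were 19.4%, 27.9% and 29.0%, so the fall with Student's test was shared by all genes. Unadjusted, Student's test passed 13 members at D2PM, 20 at D4PM and 27 post mortem. No share of all genes was computed for these unadjusted counts or for a log2 difference of at least 1.

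With the replicate number as a block, 1 member (Polr2g) was higher at D4PM than at D2PM, where the unblocked count was 0 and 0 to 1 with 1 array left out; the block changed no other call of a named member between post-mortem and old cells. The arrays share a number and no sign of pairing. The pol I median of -0.24 became -0.38 with the mean of probe sets and lay between -0.33 and -0.14 with 1 array left out. The pol II median of -0.02 became 0.040 after a second quantile normalisation, -0.071 after median centring, 0.030 with the mean of probe sets and 0.039 with the replicate block, and lay between -0.047 and 0.040 with 1 array left out. The pol III median lay between -0.07 and 0.01. The cause of these shifts was not tested. Polr3g, at 0.00, became -0.049 after quantile normalisation, -0.051 after centring, -0.0075 with array weights, -0.010 by Student's test, and -0.11 to 0.12 with 1 array left out. Polr3gl, at 0.15, lay between -0.036 and 0.34 with 1 array left out, the lowest without old replicate 2. The old mean of each gene rests on 2 arrays, whereas its error is pooled over the 3 groups.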
